A study of Ovis aries with 40 samples.

Results

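The longissimus dorsi of Texel fetuses was compared between 70 d and 85 d of gestation, with 3 fetuses at 70 d (T70) and 3 at 85 d (T85), which are 6 of the 40 samples of the series. The samples were chosen by breed and stage as labelled. Texel is a heavily muscled meat breed, and the series set it beside Ujumqin, a Mongolian sheep, whose 3 fetuses of 70 d (U70) and 3 of 85 d (U85) serve here as the comparison. All fetuses were purebred, came from ewes synchronized for oestrus and inseminated with semen of their own breed, and were taken by caesarean section. T70 held 2 females and 1 male, T85 held 1 female and 2 males, and U70 and U85 held 1 female and 2 males each. RNA of each fetus was labelled with Cy3 and hybridized to its own 1-colour Agilent sheep array. The labels number the fetuses but do not name their dams, so the p-values measure the spread between the fetuses fitted, which include the later Texel stages.

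Skeletal muscle fibres form in waves in the sheep fetus. Primary fibres are laid down first and serve as a scaffold on which many secondary fibres form around the middle of gestation. Most fibres then enlarge, exchange embryonic for adult forms of their contractile proteins, and take on the fuel metabolism of fast or slow muscle, while nerve endings and the connective tissue around the fibres mature. The question of the comparison is which transcripts changed in Texel muscle within this interval.

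Values are log2 of the normalized signal of a probe, a 60-base DNA oligonucleotide that reports a transcript, so a difference of 1 is 2-fold. A probe was called when the adjusted p of limma, a linear model fitted across all probes, was under 0.05 and the change was 2-fold or more. Of 14385 probes tested, 19 were called between T85 and T70, or 0.132%, of which 15 were higher and 4 lower in T85, or 0.104% and 0.0278%. A fit on the 6 arrays of T70 and T85 alone called 12, of which 7 were among the 19. The T85 arrays did not overlap the T70 arrays at any of the 19, which were picked on these same values, and 1 of which, A_70_P029001, had only 2 T70 values. Over all probes tested they did not overlap at 20.3%. Gene names were available for 11 of the 19, and these report 10 genes. At an unadjusted p under 0.05 with 2-fold, 273 probes differed, or 1.9%, 136 higher and 137 lower, or 0.945% and 0.952%. The median log2 change over all probes was -0.01.

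The arrays of both groups were alike in brightness, with median processed signals from 570 to 708, and no spot was saturated. T85 replicate 2 stood lowest, with correlations to the other 5 arrays from 0.976 to 0.983, against 0.984 to 0.990 among those 5. On it 83.8% of spots were well above background. Without it 9 probes were called, and 8 of the 19 stayed called, those for ACTN3, TMOD4, FBP2, BARX2, CBLN2 and MYO5B, 1 for UCP3 and the unnamed probe A_70_P046601. T85 replicate 3 was on slide 2 and the other 5 arrays were on slide 1. The U70 and U85 arrays were all on slide 2. Leaving out T85 replicate 3 set the difference of T85 and T70 within slide 1. The spread in that fit still came also from the later Texel stages, which were on other slides. Termed within slide 1 below, the fit called 9 probes, of which 6 were among the 19, those for ACTN3, FBP2, BARX2, CBLN2, MYO5B and A_70_P046601. With slide as a fixed block 4 were called, of which 3 were among the 19, those for ACTN3, CBLN2 and A_70_P046601. The muscle markers among the tested genes, MYH1, TNNC2, MYOD1 and MYOG, were well above background, and their summed signal on the log2 scale was 18.91 to 19.11 in T70 and 19.05 to 19.09 in T85. TNNC2, with means of 18.84 in T70 and 18.91 in T85, was by far the brightest, so that sum was mainly the reading of TNNC2. In whole muscle, fewer cells of a type and less RNA per cell cannot be told apart.

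The probes that carry the results on fibre structure and metabolism are given here as the array file spells them, 5′ to 3′, since each value is the signal of 1 such sequence. For MMP1 and UCP3, which had 2 probes each, capitals mark the bases that both probes of the pair share. The last sequence is that of the called probe with the largest change, which had no gene name. Genome positions were not used here.
ACTN3 (A_70_P037371): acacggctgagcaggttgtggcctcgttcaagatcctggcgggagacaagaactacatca
TMOD4 (A_70_P038871): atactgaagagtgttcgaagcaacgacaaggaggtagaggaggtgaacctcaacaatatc
FBP2 (A_70_P063416): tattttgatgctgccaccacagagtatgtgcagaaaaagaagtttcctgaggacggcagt
UCP3 (A_70_P002796): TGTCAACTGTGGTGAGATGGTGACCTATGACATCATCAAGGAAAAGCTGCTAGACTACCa
UCP3 (A_70_P002797): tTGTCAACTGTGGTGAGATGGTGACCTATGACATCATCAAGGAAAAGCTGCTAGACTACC
MMP1 (A_70_P026537): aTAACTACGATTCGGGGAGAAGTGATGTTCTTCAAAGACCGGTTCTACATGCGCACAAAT
MMP1 (A_70_P026536): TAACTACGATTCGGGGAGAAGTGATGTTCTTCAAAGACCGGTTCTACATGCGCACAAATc
A_70_P069231: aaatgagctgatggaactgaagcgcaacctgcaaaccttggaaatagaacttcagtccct

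ACTN3 and TMOD4, genes of the mature sarcomere, rose from T70 to T85. ACTN3 encodes the alpha-actinin that anchors thin filaments at the Z-discs of fast fibres. Its level was 11.06, 10.83 and 10.17 in the 3 T70 fetuses and 13.75, 13.36 and 14.05 in the 3 T85 fetuses. Every T85 fetus was thus above every T70 fetus, as at every called probe that rose and at 9.25% of all probes tested. The rise was 3.03 on the log2 scale (SE 0.29), or 8.19-fold, with an adjusted p of 0.000887 by limma. TMOD4, a tropomodulin that caps the pointed ends of thin filaments in skeletal muscle, was at 10.88, 11.03 and 11.26 in T70 and at 12.99, 12.69 and 12.92 in T85. It rose by 1.81 (SE 0.25), or 3.51-fold (adjusted p = 0.00989, limma), and the fetuses within each group lay close together. Within slide 1 the log2 changes were 2.87 for ACTN3 and 1.78 for TMOD4, with adjusted p-values of 0.00742 and 0.0568.

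MYH1, the fast IIx myosin heavy chain, had a large difference that did not pass. Its brighter probe was at 10.95, 9.72 and 12.07 in T70 and at 13.25, 14.13 and 12.79 in T85. The groups did not overlap but the T70 fetuses were far apart, and the log2 difference was 2.48 (SE 0.55, adjusted p = 0.122, limma). The other MYH1 probe differed by 2.32 (adjusted p = 0.213). In a fit on all 31 fetal arrays the adjusted p-values of these probes were 0.00647 and 0.0203. CASQ1, which holds calcium in the sarcoplasmic reticulum of fast fibres, was at 11.25, 11.64 and 11.30 in T70 and at 12.67, 12.52 and 12.34 in T85. Its difference was 1.12 (SE 0.21) with an adjusted p of 0.0685, and 0.0118 in the fit on 31 arrays. That fit was more permissive and called 56 probes, against 19 in the main fit. With sex as a covariate 7 were called, all among those 19, so neither MYH1 nor CASQ1 passed there. Of the 7 genes of the fast fibre and mature sarcomere list that were tested, 2 rose, 0 fell and 6 had a difference above 0, with a median of 0.73. Over all 14385 probes 0.104% rose and 6915 had a difference above 0. In the list, TPM1, a tropomyosin, differed by 0.42 and TPM2, the beta tropomyosin, by 0.73, whereas TNNC2, the fast troponin C, differed by 0.06 and CMYA5 by -0.69, and none of these passed. Of the slow and cardiac list 2 genes were tested and 0 were called. Of these MB, the oxygen store myoglobin, was lower in every T85 fetus, by 0.77 on the log2 scale with an adjusted p of 0.239.

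Among genes of fuel use, FBP2 and 1 probe of UCP3 rose. FBP2, the muscle fructose-1,6-bisphosphatase that works between glycolysis and glycogen synthesis, was at 5.54, 4.72 and 6.47 in T70 and at 10.55, 9.16 and 8.96 in T85. It rose by 3.98 (SE 0.45), or 15.8-fold (adjusted p = 0.0023, limma). Within slide 1 the change was 4.28, and with the normexp background correction it was 2.43 and still passed. UCP3, a carrier of the inner mitochondrial membrane found in muscle, had 1 called probe, A_70_P002796, at 4.81, 4.72 and 4.66 in T70 and at 7.73, 6.83 and 7.57 in T85. That probe rose by 2.65 (SE 0.41, adjusted p = 0.0304). The other UCP3 probe, which shares 59 of its 60 bases, was at 7.72, 4.75 and 7.41 in T85, so that replicate 2 fell within the T70 range, and its difference of 1.76 had an adjusted p of 0.484. With the normexp correction the called UCP3 probe changed by 0.79 and did not pass (adjusted p = 0.591).

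Over the glycolysis and fuel choice list, 15 genes were tested, of which 1, FBP2, rose and 0 fell. A difference above 0 was found for 12 of the 15, the T85 and T70 arrays did not overlap upward for 10, against 9.25% of all probes, and the median was 0.67. SLC2A4, the insulin-responsive glucose transporter, was at 10.91, 10.42 and 10.98 in T70 and at 12.58, 12.20 and 12.11 in T85 at the probe with the smaller error. All T85 fetuses were higher, by 1.53 (SE 0.31), but the adjusted p was 0.0842. PYGM, the muscle glycogen phosphorylase, differed by 1.00, ENO3, the muscle enolase, by 0.89, PFKM, the muscle phosphofructokinase, by 0.72 and LDHA, lactate dehydrogenase A, by 0.67, with adjusted p-values from 0.127 to 0.491. ALDOA, the muscle aldolase, had 2 bright probes with differences of 0.62 and 0.63 and a dimmer one, A_70_P001706, with -0.29, and none passed. Of 9 genes of mitochondrial oxidation 0 were called at the probe used for the list, and their median was 0.42. In that list COX7A1, a muscle subunit of cytochrome c oxidase, differed by 1.13 (adjusted p = 0.167) and PPARGC1A, a regulator of mitochondrial content, by 0.05.

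**Figure D1:**
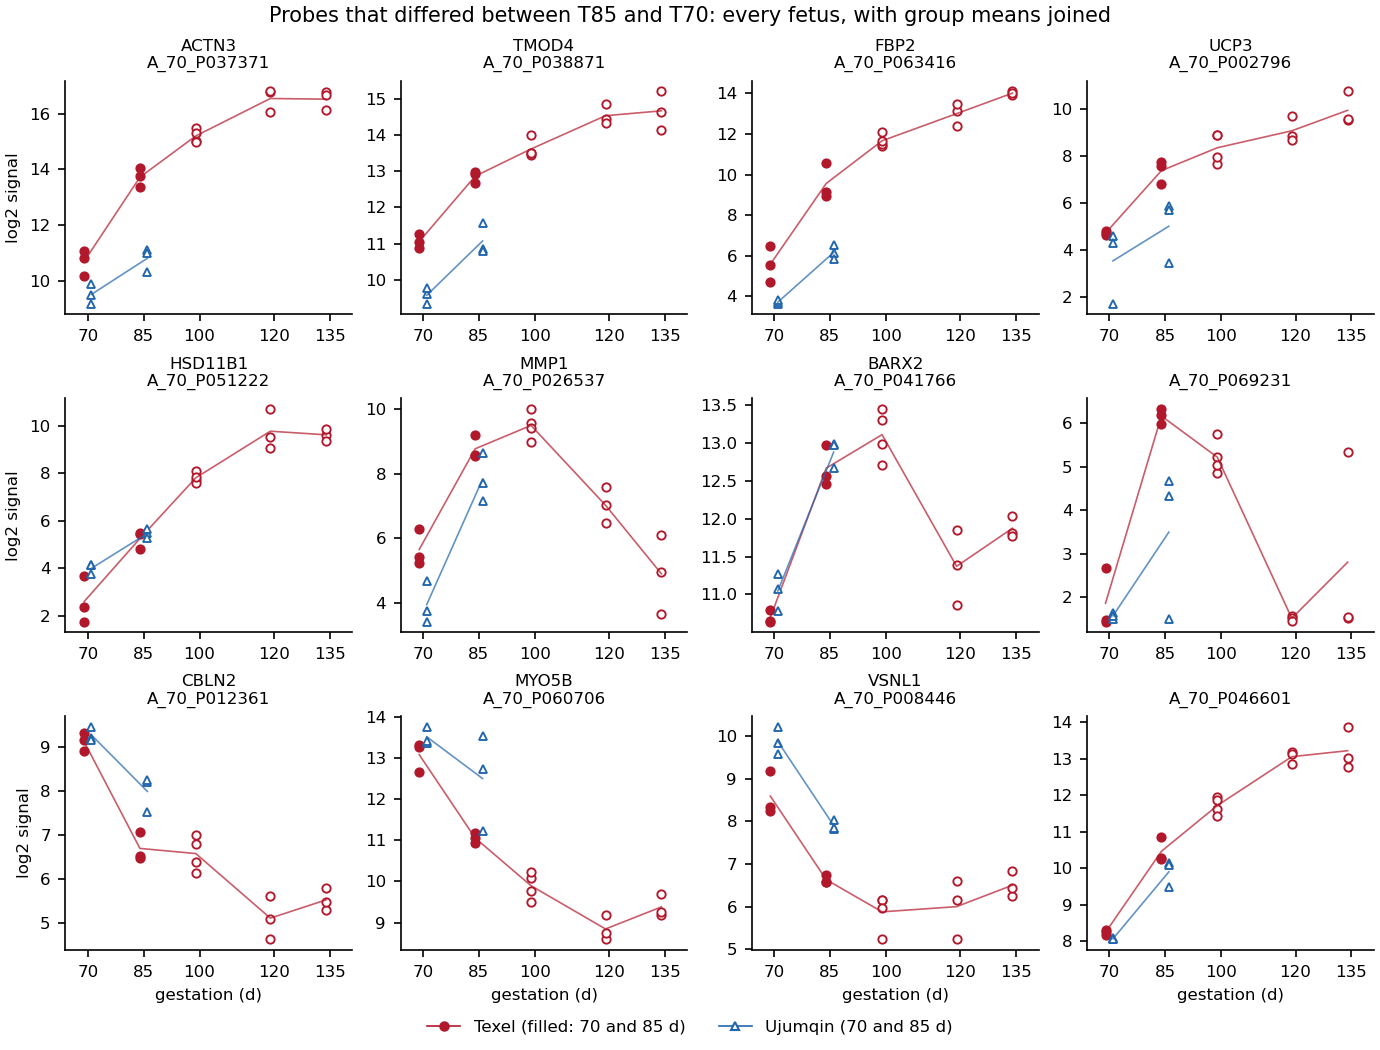
Log2 signal (vertical axis) against day of gestation for 12 called probes, with a point per fetus and a line through the group means, for Texel from 70 to 135 d (red circles, filled at 70 and 85 d) and Ujumqin at 70 and 85 d (blue triangles). In each panel the filled points at 85 d lie apart from those at 70 d. ACTN3, FBP2 and TMOD4 went on to higher means at later stages, whereas MMP1 had lower means at 120 and 135 d, and A_70_P069231 was low at 120 d and in 2 of the 3 fetuses of 135 d.

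The levels at the later Texel stages, which share no array with T70 and T85, are given as a description. ACTN3 averaged 15.21, 16.55 and 16.53 at 100, 120 and 135 d, and FBP2 averaged 11.66, 13.00 and 14.01. These genes, with TMOD4 and UCP3, were thus at higher levels at each of these stages than in T85.

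HSD11B1, the enzyme that regenerates cortisol from cortisone within tissues, had 1 called probe and 1 that did not pass. At probe A_70_P051222 the level was 3.66, 2.35 and 1.75 in T70 and 5.45, 4.82 and 5.49 in T85, a fitted difference of 2.67 (SE 0.45, adjusted p = 0.0334, limma). Only 1 of the 3 T70 arrays was well above background there, so the size of the difference is uncertain, and with the normexp correction the change was 0.31 and did not pass. The other probe, A_70_P051221, was brighter and well above background on all 6 arrays. It read 6.99, 7.11 and 6.21 in T70 and 8.85, 8.47 and 8.89 in T85, a difference of 1.97 (SE 0.46) with an adjusted p of 0.154. Both probes placed every T85 fetus above every T70 fetus, as did 9.25% of all probes tested.

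Of 25 hormone and growth factor receptor genes, counted with HSD11B1 at its brighter probe, 0 were called, and the median difference was 0.13. LEPR, the leptin receptor, had 4 probes, of which 3 were well above background in all 6 fetuses. These differed by 1.17, 1.34 and 1.49, with adjusted p-values of 0.202, 0.167 and 0.110. OXTR, the oxytocin receptor, differed by 1.17 (adjusted p = 0.207) at the probe used for the list. AGTR1 and AGTR2, the receptors of angiotensin, differed by 0.56 and -0.64, and THRB, a thyroid hormone receptor, by -0.66, none of which passed. The insulin-like growth factor list held 12 tested genes with a median of -0.03 and 0 called. IGF1, IGF2 and the receptor IGF1R differed by 0.13, 0.04 and -0.10. The largest difference of that list was that of IGFBP2, a binding protein, at -0.70.

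BARX2, a homeobox transcription factor expressed in muscle progenitors, was at 10.79, 10.64 and 10.65 in T70 and at 12.96, 12.46 and 12.56 in T85. It rose by 1.97 (SE 0.25), or 3.91-fold (adjusted p = 0.00376, limma), and by 2.02 within slide 1. The Texel means after T85 were 13.11 at 100 d, 11.37 at 120 d and 11.87 at 135 d. Of 7 myogenic regulation genes 0 were called, with a median of 0.19. MYOD1, MYOG and MYF5, the basic helix-loop-helix factors of the muscle lineage, differed by 0.09, 0.24 and -0.49. STAT3, a transcription factor of cytokine signalling, was at 10.09, 9.62 and 9.42 in T70 and at 11.33, 11.65 and 11.01 in T85, a difference of 1.62 (SE 0.35) with an adjusted p of 0.114. LEF1, a transcription factor of Wnt signalling, differed by 1.25 (adjusted p = 0.320).

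MMP1, the interstitial collagenase, was the 1 called gene of 19 in the collagen and matrix list. Probe A_70_P026537 was at 5.25, 5.44 and 6.29 in T70 and at 8.54, 8.57 and 9.21 in T85, a rise of 3.12 (SE 0.51, adjusted p = 0.0332, limma), and A_70_P026536 rose by 3.01. With the normexp correction the changes were 1.68 and 1.56 and still passed. These probes are shifted by 1 base and are not independent readings. Within slide 1 the changes were 2.90 and 2.78 and did not pass. Of the 19 genes 13 had a difference below 0, with a median of -0.35, and 0 were called lower. Over all 14385 probes 7470 were below 0. The T85 arrays were wholly below T70 for 6 of the 19 and wholly above for 2, against 11% and 9.25% of all probes. COL1A1, a chain of collagen I, differed by -0.94, COL12A1, a chain of collagen XII, by -1.02, MMP2, a gelatinase, by -0.53 and TGFB3, a transforming growth factor, by -0.52, with adjusted p-values from 0.560 to 0.650.

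**Figure D2:**
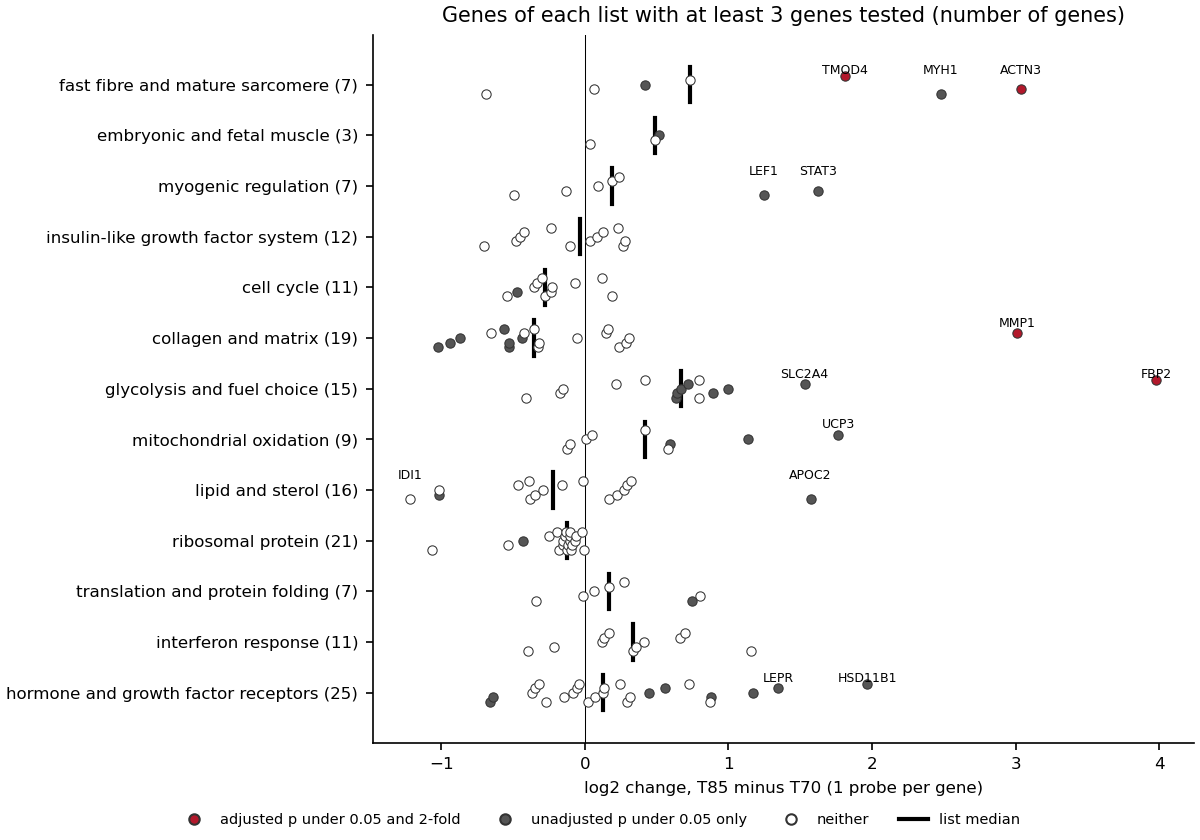
Log2 change from T70 to T85 (horizontal axis) of each tested gene in the lists with at least 3 genes, 1 probe per gene, with a black bar at the list median. Called genes are red, genes with an unadjusted p under 0.05 alone are grey and the others are white. The fast fibre and fuel lists have medians of 0.73 and 0.67, the matrix and cell cycle lists of -0.35 and -0.28, and UCP3 and HSD11B1 are drawn at their brighter probe, which was not called.

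The remaining lists held no called gene. Of 11 cell cycle genes 9 were below 0, with a median of -0.28, and 6 had T85 arrays wholly below T70. CCND2, cyclin D2, differed by -0.47. Over all 14385 probes 7470 were below 0. All 21 ribosomal protein genes were below 0, from -1.06 to -0.01, with a median of -0.12, while 11% of all probes had T85 arrays wholly below T70 and 5 of the 21 genes did. The 7 translation and folding genes had a median of 0.17. In that list EEF1A2, the muscle form of the elongation factor that brings aminoacyl-tRNA to the ribosome, was at 14.63, 14.82 and 14.07 in T70 and at 14.91, 15.60 and 15.41 in T85 at its brighter probe. Its difference of 0.80 (SE 0.39) had an adjusted p of 0.764. The 16 lipid and sterol genes had a median of -0.22, with APOC2, an activator of lipoprotein lipase, at 1.57 and LPL, that lipase, at -1.02, neither of which passed. The 11 interferon response genes had a median of 0.34, and the 3 genes of a list named embryonic and fetal muscle, IGF2, MEG3 and MYL6B, of 0.49. Among further genes that the study names for these stages, PRG3 differed by 2.33, MYO9A by 0.24, PIK3R1 by -0.22 and STMN2 by -0.75, with adjusted p-values from 0.640 to 0.996.

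The 3 named genes that fell are not sarcomere or metabolic genes. CBLN2, a secreted protein of the cerebellin family that organizes synapses, was at 8.91, 9.16 and 9.33 in T70 and at 7.08, 6.48 and 6.52 in T85. It fell by 2.44 on the log2 scale (SE 0.28), or 5.44-fold (adjusted p = 0.0023, limma). MYO5B, an unconventional myosin that moves vesicles, was at 13.26, 13.31 and 12.66 in T70 and at 11.05, 10.94 and 11.17 in T85, and fell by 2.02 (SE 0.24, adjusted p = 0.0023). VSNL1, a calcium sensor best known from neurons, was at 8.25, 9.18 and 8.34 in T70 and at 6.58, 6.58 and 6.73 in T85, and fell by 1.96 (SE 0.35, adjusted p = 0.0489). For each of these genes the T85 fetuses were all below the T70 fetuses, as at every called probe that fell and at 11% of all probes tested. Within slide 1 the changes were -2.36, -2.08 and -2.01, and the last did not pass. With the normexp correction the changes of CBLN2 and VSNL1 were -1.61 and -1.20 and still passed. The neural list had 1 tested marker, STMN2, whose level was 6.17 to 8.87 in T70 and 6.52 to 7.10 in T85, and its part in these results was not tested.

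Of the 8 called probes without a gene name 7 were higher. A_70_P069231 was at 1.44, 2.67 and 1.48 in T70, where no array was well above background, and at 5.97, 6.19 and 6.32 in T85, where all 3 were. It was at least 9.52-fold higher in T85 (adjusted p = 0.0423, limma). The bound sets the T85 mean against the lowest signal well above background on each T70 array. With the normexp correction the change was 0.60, under 2-fold, so the bound holds only without it. The Texel means were 5.21 at 100 d and 1.52 at 120 d, and the 135 d fetuses were at 1.54, 1.56 and 5.33. KRT27, a keratin of hair follicles looked at after the values were seen, was at 3.89, 3.75 and 10.58 in the same 135 d fetuses. In U85, A_70_P069231 was at 4.32, 1.49 and 4.67 and KRT27 at 9.08, 4.79 and 8.53, so that both were low in replicate 2. They did not go together on every array. In Ujumqin replicate 1 of 120 d KRT27 was at 9.12 and A_70_P069231 at 1.47. In Texel replicate 1 of 120 d they were at 7.22 and 1.58. The part of hair or skin tissue in the change of A_70_P069231 was not tested. A_70_P046601 was at 8.30, 8.17 and 8.26 in T70 and at 10.26, 10.28 and 10.87 in T85, a rise of 2.22 (SE 0.26, adjusted p = 0.0023). It averaged 11.72, 13.06 and 13.23 at 100, 120 and 135 d. A_70_P029001 rose by 2.02, with only 2 T70 values because 1 spot was marked as an outlier, and by 1.44 (adjusted p = 0.296) with that spot kept. The other 4 that rose, A_70_P036951, A_70_P061521, A_70_P051846 and A_70_P027661, changed by 1.01 to 1.04, just past 2-fold. A_70_P019101 fell by 1.27.

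**Figure D3:**
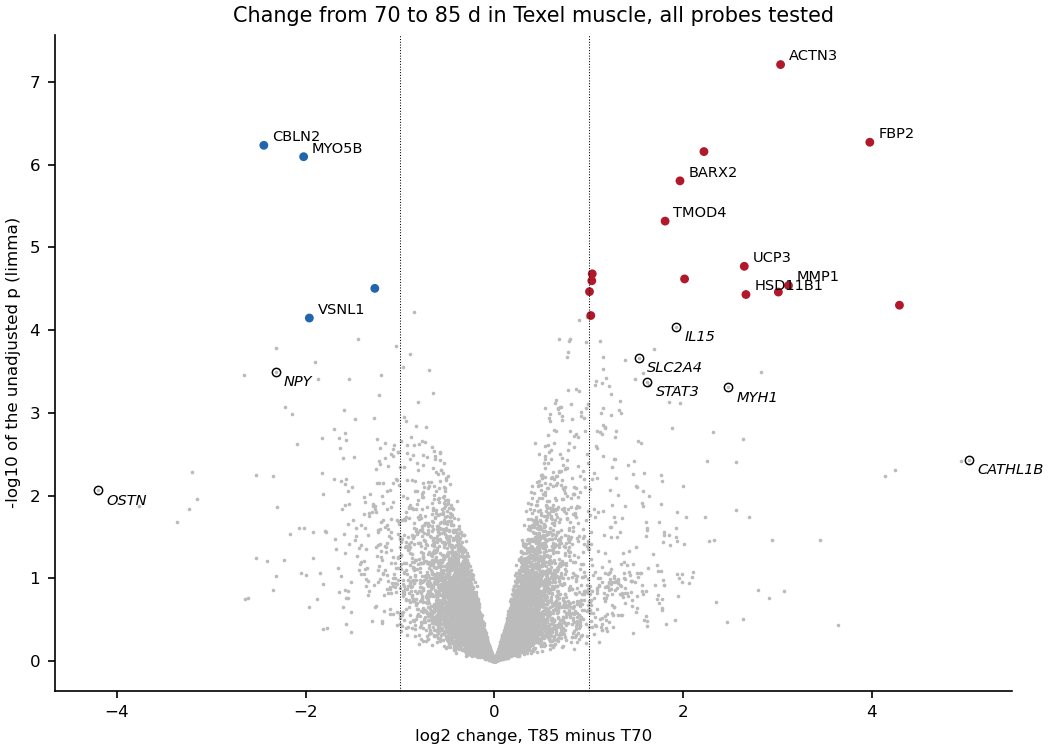
Log2 change from T70 to T85 (horizontal axis) against -log10 of the unadjusted p (vertical axis) for 14385 probes, with the 15 called higher in red, the 4 called lower in blue and dotted lines at 2-fold. Open circles mark 7 genes that did not pass adjustment. CATHL1B and OSTN have larger changes than most called probes, 5.03 and -4.20, but smaller -log10 values.

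The marker lists of other cell types held no called gene. All 7 endothelial markers tested had a difference above 0, with a median of 0.48, and their summed signal on the log2 scale did not overlap between the groups, at 10.93 to 11.19 in T70 and 11.47 to 11.51 in T85. Taken singly, 3 of the 7 did not overlap upward, against 9.25% of all probes. Over all 14385 probes 6915 had a difference above 0. The 12 leukocyte markers summed to 11.08 to 11.45 in T70 and 11.06 to 11.22 in T85, and the 3 erythroid markers to 15.46 to 17.17 and 15.51 to 16.04. HBB, with means of 16.49 in T70 and 15.78 in T85, set most of the erythroid sum. The tendon and fibroblast markers summed to 17.73 to 18.52 in T70 and 17.56 to 17.91 in T85, with TNMD, tenomodulin, at 15.43, 16.83 and 14.53 in T70 and at 14.51, 12.06 and 12.41 in T85. DCN, the brightest of them, with means of 17.67 in T70 and 17.62 in T85, set most of that sum. The part of the tendon and fibroblast markers in the changes of the matrix genes was not tested. Every tested marker of the endothelial, leukocyte and erythroid lists was well above background on at least 1 array of each group, whereas SELE, an endothelial selectin, was on no fetal array and was not tested.

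The same interval was measured in Ujumqin, on arrays that share none with Texel. All 19 Texel calls had the same sign there, against 62.8% of all probes tested and 226, or 82.8%, of the 273 with an unadjusted p under 0.05 and 2-fold. Of the 19, 16 had U85 and U70 arrays that did not overlap in the same direction, and 9 were also called in Ujumqin, where 25 probes were called in all, or 0.174%, of which 23 were higher and 2 lower in U85, or 0.16% and 0.0139%. The change was larger in Texel for 16 of the 19, which were chosen by their size in Texel. The change in Ujumqin was 1.30 for ACTN3, 2.45 for FBP2, 1.51 for TMOD4, 1.83 for BARX2, 3.88 for MMP1 at A_70_P026537, -1.29 for CBLN2 and -1.01 for MYO5B.

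The difference of the change between the breeds was tested as an interaction over the 31 fetal arrays. It was called for 0 of 14385 probes by limma, and the lowest adjusted p was 0.0673. At an unadjusted p under 0.05 with 2-fold it passed for 142, or 0.987%. ACTN3 had the lowest unadjusted p among the 19, with a change larger in Texel by 1.73 on the log2 scale (SE 0.42), which did not pass adjustment. The ACTN3 level was also higher in Texel at the start, with 10.17 to 11.06 in T70 and a mean of 9.50 in U70. The lowest adjusted p was that of MYL6B, a myosin light chain. It was at 16.27, 16.07 and 15.87 in T70 and at 16.62, 16.43 and 16.72 in T85, and its means were 17.31 in U70 and 16.41 in U85. Every T85 fetus was above every T70 fetus and every U85 fetus below every U70 fetus, with log2 changes of 0.52 and -0.89 and a difference of 1.41 (adjusted p = 0.0673). MYL6B was picked from 14385 probes by that test, so the order of its fetuses is not separate evidence.

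**Figure D4:**
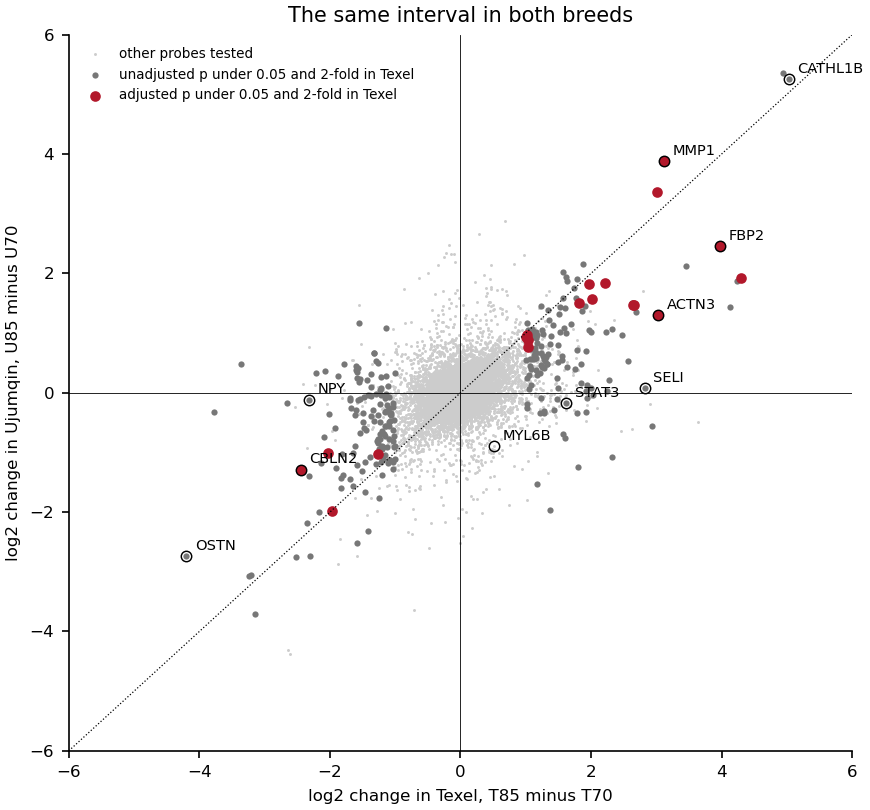
Log2 change from 70 to 85 d in Texel (horizontal axis) against Ujumqin (vertical axis), a point per probe, with the dotted line at equal change. The 19 Texel calls, in red, changed in the same direction in both breeds. MYL6B lies to the right of and below 0, and STAT3, SELI and NPY lie near 0 in Ujumqin.

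STAT3 differed by 1.62 in Texel and by -0.17 in Ujumqin, but the interaction did not pass. U70 was already at 10.94, against 9.42 to 10.09 in T70, so that the U70 mean was just below the T85 levels of 11.01 to 11.65. LEPR at A_70_P056812 was also lower in T70, at 4.70 to 5.28, than the U70 mean of 6.12. It was at 6.29 to 6.70 in T85, and its U85 mean was 6.64. For STAT3 and LEPR alike, breed and slide cannot be told apart between T70 and U70.

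**Figure D5:**
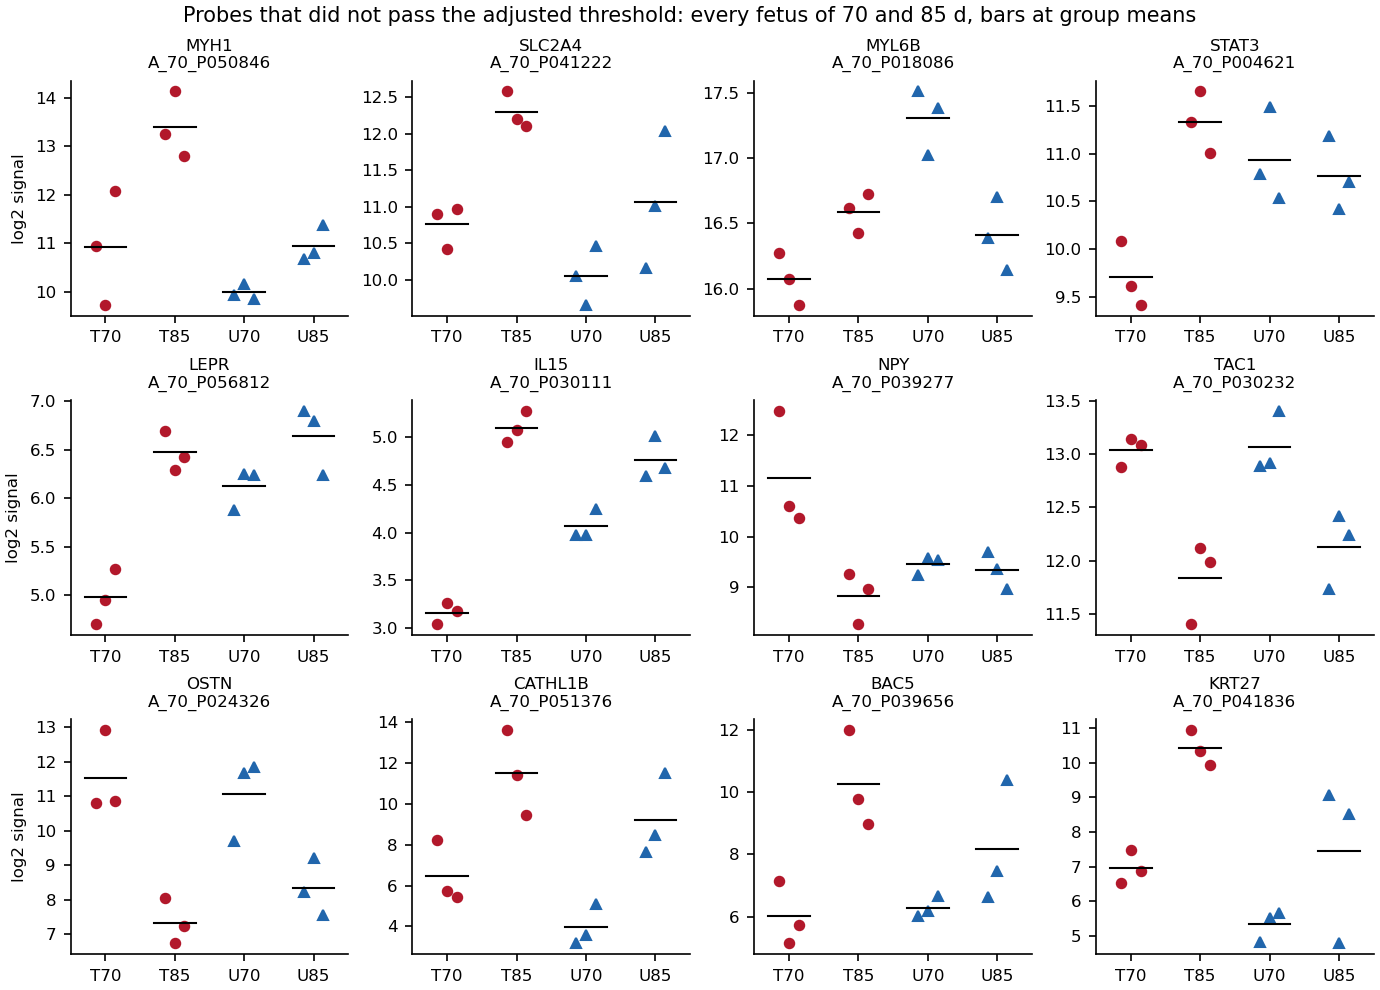
Log2 signal (vertical axis) of 12 probes that did not pass adjustment and were chosen for display after their values were seen, with a point per fetus in T70, T85 (red circles), U70 and U85 (blue triangles) and a bar at each group mean. In every panel the T85 fetuses lie apart from the T70 fetuses, as they did at 20.3% of all probes tested. MYL6B moves in opposite directions in the breeds, and NPY and STAT3 have close means in U70 and U85.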

How the data were processed

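Per the file headers, the authors obtained the intensity of each spot with Agilent Feature Extraction 10.5, which subtracted the background without scaling between arrays. An alternative used the authors' own log2 values, deposited after quantile normalization. From the intensities, outlier spots were left out, spots of a probe averaged, the 31 fetal arrays normalized together by quantiles, and values set to at least 1 before log2. Of 15008 probes, the 14385 well above background on at least 1 fetal array were tested. T85 was contrasted with T70 in a limma 3.58.1 fit (R 4.3.3) of the 16 Texel arrays, and the breed difference of the change in a fit of the 31, with Benjamini-Hochberg adjustment. Precision is limited by the number of arrays.

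The files, matched to RefSeq gene tables, or the study's own lists named 1839 probes, 300 of them through lists the study drew up for breed differences on these arrays, so having a name is not independent of the data. Named in the text are called genes (up to 12 per direction) whose T85 and T70 values did not overlap. Also named are list members, the 2 probes per direction with the largest called change and breed differences that passed. A selection of the genes the study names for these stages is given too. List values use the brightest probe of a gene. Members and lists were chosen with earlier results of these data known. One gene is not reported here. Alternatives covered scaling, background, filter, floor, outliers, arrays fitted, trend, weights, sex, slide, replicate number, test, threshold and leaving out each array. The steps were tested on simulated data. Figures were drawn with matplotlib 3.10.9 in Python 3.11.15, with numpy 2.4.6 and pandas 2.3.3.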

Additional observations from a re-analysis of the deposited data

Results flagged for a closer look

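T100 is the only group of 4 samples. In it TMOD4 stood apart in replicate 2 at 14.02 on the log2 scale, against 13.44 to 13.51 in the other 3. The unnamed probe A_70_P036951 stood apart in T100 replicate 1 at 13.84, against 14.11 to 14.13. Chance sets a sample apart in this way in about 1 in 20 groups, and neither value enters the difference between T85 and T70 except through the shared spread. For MYL6B all T85 fetuses were above all T70 fetuses and all U85 fetuses below all U70 fetuses, with a log2 change larger in Texel by 1.41, and the test of that difference did not pass adjustment (adjusted p = 0.0673, limma). That adjusted p was the lowest of all probes tested, so the order of the MYL6B fetuses is not separate evidence.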

How the results depend on the processing

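All 19 called probes kept their sign in 24 of 24 alternatives, and the count of calls moved more. It was 12 with quantiles over the 6 arrays, 12 with the fit on those 6, 56 with the fit on 31, 84 with array weights, 7 with sex as a covariate, 4 with slide as a fixed block, and 6 to 14 when each array was left out in turn (6 without T70 replicate 2, 7 without T70 replicate 1, 9 without any one of the T85 arrays). The methods' t-test gave 0 after adjustment, also at an adjusted p under 0.4, and 156 at an unadjusted p under 0.05 with 2-fold, where limma gave 273. With the replicate block, fitted on the 6 arrays, it was 0, with 298 at the unadjusted threshold. Correlations of deviations between same-numbered arrays were 0.0853, 0.169 and -0.00650, and between arrays of different number -0.155 to 0.0801. With 3 arrays per group these values cannot decide whether the numbers pair the fetuses. A floor of 16 gave 24 calls, 15 higher and 9 lower. ACTN3, CBLN2 and A_70_P046601 were called in 22 of 24 alternatives and VSNL1 in 8. The normexp correction gave 18 calls, with smaller changes at dim probes. Differences near 0 turned for ALDOA at A_70_P001706 (-0.52 to 0.00670 over the left-out arrays, the latter without T70 replicate 2) and PIK3R1 (-0.49 to 0.00485, the latter without T85 replicate 1). For the breed difference the count was 1 with the deposited table (MYL6B, 1.45), and 0 to 1 when each array was left out: MYL6B without U70 replicate 2 or U85 replicate 2, and A_70_P025681 without T70 replicate 3. The cause of these shifts was not tested.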

Other observations

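The genes of this paragraph and the next were chosen after their values were seen, and none passed adjustment. CATHL1B, a cathelicidin, was at 8.22, 5.73 and 5.43 in T70 and at 13.62, 11.42 and 9.44 in T85, a log2 difference of 5.03 (SE 1.44, adjusted p = 0.287, limma). BAC5, another cathelicidin, differed by 4.24, CATHL3 by 2.94, LTF, lactoferrin, by 2.70 and S100A9, a calcium-binding protein of myeloid cells, by 1.19, with adjusted p-values from 0.330 to 0.893. In T85 the order of the fetuses was the same for CATHL1B, BAC5 and CATHL3, with replicate 1 highest. The leukocyte list, which holds none of these genes, had a median of -0.14. KRT27, a keratin of hair follicles, was at 6.53, 7.47 and 6.88 in T70 and at 10.95, 10.35 and 9.94 in T85 (difference 3.45, adjusted p = 0.640), and KRT25 differed by 2.79 and 2.35 at its probes.

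OSTN, osteocrin, a peptide secreted by muscle and bone, was at 10.82, 12.93 and 10.87 in T70 and at 8.06, 6.73 and 7.23 in T85, a difference of -4.20 (adjusted p = 0.403, limma), with -2.73 in Ujumqin. NPY, neuropeptide Y, was at 12.49, 10.59 and 10.37 in T70 and at 9.26, 8.26 and 8.97 in T85, a difference of -2.32 (adjusted p = 0.104), with -0.11 in Ujumqin. TAC1, the precursor of substance P, differed by -1.20 (adjusted p = 0.107). IL15, a cytokine made by muscle, differed by 1.93 and 1.69 at 2 of its 4 probes (adjusted p = 0.0570 and 0.0764), by 1.41 at a probe near background and by 0.24 at the brightest. INHBB, an activin subunit, differed by 1.58 in both breeds and was called in Ujumqin. SELI differed by 2.83 in Texel (adjusted p = 0.104) and by 0.07 in Ujumqin, where both means were above the T85 fetuses. Those Ujumqin arrays were all on slide 2, whereas of the T70 and T85 arrays only T85 replicate 3 was.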
